A study of Mus musculus with 6 samples.

Results

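A set of 8 receptors that steer B cells through lymphoid tissue was followed in splenic follicular (Fo) B cells: Cxcr4, Cxcr5, Ccr6, Ccr7, Gpr183, P2ry10, Cxcr2 and Ackr3. They were chosen by name, as receptors of chemokines and of positioning lipids, and make up 8 of the 24346 gene symbols in the deposited tables. RNA sequencing compared 3 libraries from mice homozygous for G9gl with 3 from B6 control mice, called WT here. G9gl is a knock-in of the heavy and light chain of a germline-form anti-DNA antibody, so that these B cells carry a preset antigen receptor, and the study asked what sets their anergic state apart. All mice were 8 weeks old, and in both genotypes the cells had been sorted from spleen as B220+ and CD93- with low CD21 and high CD23. The labels do not state whether each library stands for 1 mouse, so every p-value measures only the spread between these libraries, and that spread may be technical.

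Chemokine receptors are surface proteins with a heptahelical fold that couple to inhibitory G proteins and turn a gradient of a secreted ligand into directed movement. In the spleen, the balance of these receptors sets where a B cell sits: Cxcr5 draws it into the follicle towards CXCL13, Ccr7 draws it towards the T cell zone, Gpr183 holds it at the follicle's rim and Cxcr4 responds to CXCL12. The RNA level of a receptor is only one of the steps that set its amount at the surface, and surface protein was not measured here.

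Values are FPKM, a level corrected for the length of the transcript and for the mapped fragments of the library. Each library was estimated to hold between 10200000 and 11950000 fragments, and FPKM totals were 657759 to 671533 in G9gl and 603054 to 611557 in WT. Differences between genotypes were tested with limma on log2(FPKM + 1) in 10122 genes that reached 1 FPKM in 3 or more libraries, and a gene was called at a Benjamini-Hochberg adjusted p under 0.05. By that rule 1191 genes were higher and 1174 lower in G9gl, 23.4% of those tested. Rescaling to TPM, where every library has the same total, gave 730 higher and 2493 lower and moved the median log2 change of all tested genes to -0.13, against 0.00 on the deposited scale, a shift to which changes on that scale are relative. B cell markers were abundant in all 6 libraries, with summed FPKM of 7863 to 8249 in G9gl and 8552 to 8870 in WT over 10 genes. Of the genes behind the sort gate, Cr2 (CD21) was 2.13-fold and Fcer2a (CD23) 1.19-fold lower in G9gl.

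Of the 8 receptors, 7 had at least 1 FPKM in every library. Of these 7, Cxcr4, Ccr6, Gpr183 and P2ry10 rose in G9gl, Cxcr5 fell, and Ccr7 and Cxcr2 were not called, in a background where 11.8% of tested genes were called higher and 11.6% lower. Ackr3 was also called higher, but it passed the filter only through its G9gl libraries and therefore had to differ, so it is kept apart from that count. In each of the 7 receptors the G9gl libraries lay wholly above or wholly below the WT libraries, which was so in 40.8% of all tested genes. In bulk libraries such as these, a change in the share of cells that carry a transcript and a change in its amount per cell cannot be told apart.

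The summed levels of markers of other cells also differed between genotypes, beside the receptors. Macrophage and monocyte markers summed to 76.5 to 103.6 FPKM in G9gl and 32.0 to 39.95 FPKM in WT over 15 genes, with 8 of 10 tested members higher. Over all tested genes, 11.8% were called higher and 11.6% lower, the background for this and the other marker counts. Dendritic cell markers summed to 7.24 to 7.93 FPKM in G9gl and 2.26 to 4.27 FPKM in WT over 8 genes. Plasma cell markers were lower in sum, at 397.9 to 431 FPKM in G9gl and 439 to 445.9 FPKM in WT over 9 genes. Of the 7 tested, 3 were called higher, 2 were called lower and 2 were not called. Their median log2(FPKM + 1) difference was 0.13, so the sum and the median differed in direction. Jchain, a defining gene of antibody-secreting cells, held 5.43, 6.27 and 6.98 FPKM in G9gl and 0.529, 0.795 and 0.414 FPKM in WT. Jchain passed the filter only through G9gl and so had to differ. Plasma cells carry much Cxcr4. Sdc1, their surface marker, held 13.7, 20.9 and 23.3 FPKM in G9gl and 10.2, 8.51 and 10.7 FPKM in WT. Prdm1, their defining regulator, was below 1 FPKM in every library and was not tested. It held 0.343 to 0.612 FPKM in G9gl and 0.592 to 0.832 FPKM in WT, and the groups overlapped. Marginal zone markers summed to 580.3 to 606.7 FPKM in G9gl and 718 to 751 FPKM in WT over 11 genes, with 1 of 10 tested members higher and 5 lower. Markers of transitional B cells summed to 277 to 303 FPKM in G9gl and 717 to 765 FPKM in WT over 9 genes. That sum was carried by Cd24a and Vpreb3, which were called lower; of the other 3 tested, Spn was called higher and Cd93 and Bmf were not called, and the median log2(FPKM + 1) difference of the 5 was -0.12. The part of any of these cells in the receptor values was not tested.

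**Figure D1:**
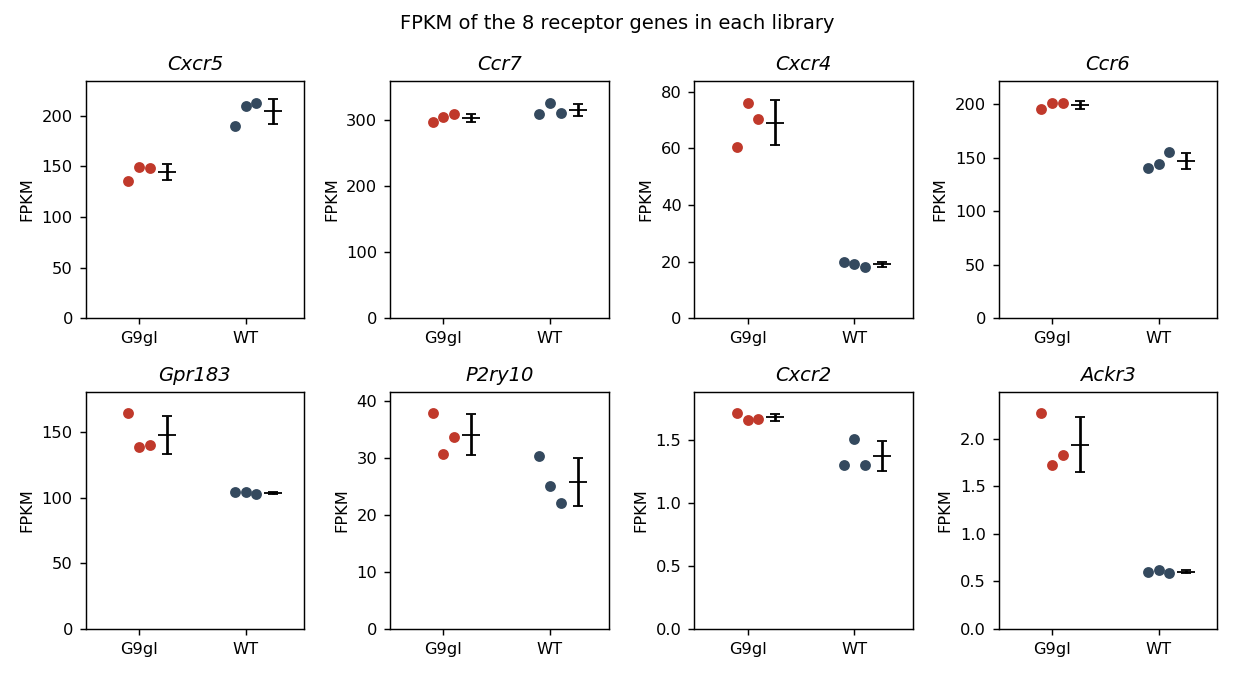
FPKM of each of the 8 receptors, with G9gl left of WT; points are libraries, horizontal lines are means and error bars are SD (n = 3 libraries each). Cxcr4 stood at 60.3 to 76.1 FPKM in G9gl and 18.0 to 19.9 FPKM in WT, while Ccr7 differed by less than 1 FPKM between the nearest libraries of the 2 genotypes.

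Cxcr4, the receptor for CXCL12 that guides B cells to the bone marrow, to the splenic red pulp and to the dark zone of germinal centres, showed the largest change of the 8 receptors. It measured 60.3, 76.1 and 70.4 FPKM in the 3 G9gl libraries, against 19.9, 19.1 and 18.0 FPKM in the 3 WT libraries. The lowest G9gl library was thus far above the highest WT library. The means were 69.0 ± 7.98 FPKM in G9gl and 19 ± 0.93 FPKM in WT (SD, n = 3 each), a ratio of 3.63. On the log2(FPKM + 1) scale the difference was 1.80 ± 0.09 (SE), with a 95% interval of 1.60 to 2.0 and an adjusted p of 2.7e-06 by limma with Benjamini-Hochberg adjustment. By size of rise on that scale it ranked 32 among the 10122 tested genes. In rank, Cxcr4 was above 85.8% of tested genes in G9gl and above 55.2% in WT.

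Ackr3, an atypical receptor that binds CXCL12 and takes it up without signalling through G proteins, was near the lower limit of the data. Its 3 G9gl libraries held 2.27, 1.72 and 1.82 FPKM, against 0.598, 0.619 and 0.591 FPKM in the WT libraries. In fragments this is an estimated 53 to 72 per library in G9gl and 17 to 19 in WT. The means were 1.94 ± 0.290 FPKM in G9gl and 0.603 ± 0.0143 FPKM in WT (SD, n = 3 each), and the log2(FPKM + 1) difference was 0.87 ± 0.14 (SE), with an adjusted p of 0.0022 by limma with Benjamini-Hochberg adjustment. The added 1 FPKM understates the change of so low a gene: the ratio of mean FPKM was 3.21, while the fold on the log2(FPKM + 1) scale was 1.83. Ackr3 passed the filter only through its G9gl libraries, so its groups had to lie apart and the adjusted p adds no support. Cxcr4 stood at many times the level of Ackr3 in both genotypes.

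The start regions of these receptors are shown because the receptors that rose differ in promoter composition. The windows hold the 250 bases before each annotated start, on the gene's strand, from RefSeq on build GRCm38.p6, the same reference as mm10; 6 of the 8 receptors had an entry, and those without one were Cxcr5 and Ccr7. Capitals mark matches, on either strand, to a fixed set of short motifs.
Cxcr4: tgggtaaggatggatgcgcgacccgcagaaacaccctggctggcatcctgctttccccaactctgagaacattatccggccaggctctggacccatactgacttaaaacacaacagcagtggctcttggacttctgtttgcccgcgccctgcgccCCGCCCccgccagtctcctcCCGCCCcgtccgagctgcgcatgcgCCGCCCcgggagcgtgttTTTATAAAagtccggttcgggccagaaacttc
Ackr3: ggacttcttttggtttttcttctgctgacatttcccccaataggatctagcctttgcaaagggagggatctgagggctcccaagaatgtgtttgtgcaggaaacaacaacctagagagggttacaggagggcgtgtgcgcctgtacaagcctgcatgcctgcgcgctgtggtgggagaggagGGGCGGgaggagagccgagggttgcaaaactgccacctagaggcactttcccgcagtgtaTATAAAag
Gpr183: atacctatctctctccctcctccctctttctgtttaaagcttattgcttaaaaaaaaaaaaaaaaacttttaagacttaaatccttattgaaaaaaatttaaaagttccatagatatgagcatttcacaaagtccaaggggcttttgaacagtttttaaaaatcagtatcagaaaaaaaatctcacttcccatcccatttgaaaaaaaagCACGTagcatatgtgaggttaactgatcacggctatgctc
Ccr6, first start: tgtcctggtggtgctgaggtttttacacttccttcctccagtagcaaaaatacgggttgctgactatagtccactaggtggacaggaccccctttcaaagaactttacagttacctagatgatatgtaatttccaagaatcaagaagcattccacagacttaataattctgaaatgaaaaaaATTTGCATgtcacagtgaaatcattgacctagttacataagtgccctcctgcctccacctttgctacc
Ccr6, second start: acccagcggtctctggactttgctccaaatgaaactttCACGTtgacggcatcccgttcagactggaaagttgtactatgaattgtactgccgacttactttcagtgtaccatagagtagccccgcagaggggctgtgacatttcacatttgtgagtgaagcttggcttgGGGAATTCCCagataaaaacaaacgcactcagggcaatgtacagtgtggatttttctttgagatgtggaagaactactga
The Cxcr4 window lies at chr1:128592300-128592549 on the minus strand, the Ackr3 window at chr1:90203730-90203979 on the plus strand and the Gpr183 window at chr14:121965194-121965443 on the minus strand. The Ccr6 windows lie at chr17:8235793-8236042 and chr17:8242276-8242525 on the plus strand.

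The Cxcr4 window was rich in G and C, at 61.2% with 19 CpG pairs, against medians of 52.4% and 6 CpG over 32851 such windows of 27025 genes. It held 3 matches to the GC box GGGCGG, a motif found in 32.7% of all windows, and a match to TATAAA, found in 12.4%, on both strands the matches overlapping each other. Ackr3 likewise held GGGCGG and TATAAA, with 54.0% G and C and 7 CpG. The Gpr183 window was the opposite in composition, at 32.0% G and C with 2 CpG, and held only the core ACGTG, present in 16.6% of windows. At Ccr6, the first window held the octamer ATGCAAAT, which B cell factors of the POU family bind and which 1.60% of windows contain, while the second held an NF-kB motif, present in 0.980%. The windows of P2ry10, not printed, held the E-box CAGCTG (with CAGGTG, in 27.7% of windows), the core ACGTG and an NF-kB match, and that of Cxcr2 held CAGGTG and CCACCC (28.1%). The forkhead letters TGTTTAC, present in 3.17% of windows, were in none of the 8 windows of the 6 receptors. These matches describe letters in a window and not bound sites.

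Cxcr5, the receptor for CXCL13 and the main follicle-homing receptor of B cells, was the one receptor of the 8 that fell. It was abundant throughout, with 135, 149.6 and 149 FPKM in the G9gl libraries, against 190.0, 210.0 and 213 FPKM in the WT libraries. All G9gl libraries lay below all WT libraries. The means were 144 ± 8.06 FPKM in G9gl and 204 ± 12.5 FPKM in WT (SD, n = 3 each). The log2(FPKM + 1) difference was -0.50 ± 0.06 (SE), with a 95% interval of -0.64 to -0.35 and an adjusted p of 0.00065 by limma with Benjamini-Hochberg adjustment. Even so, Cxcr5 remained above 93.7% of tested genes in G9gl, against 95.9% in WT. Its locus at chr9:44511787-44561877 overlaps Bcl9l on the other strand by 110 bases, and these libraries keep no strand. Bcl9l held 3.36 to 3.77 FPKM in G9gl and 3.87 to 4.64 FPKM in WT, and its part in the Cxcr5 values was not tested.

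Ccr7, the receptor for CCL19 and CCL21 that leads activated B cells to the border of the T cell zone, was the most abundant receptor of the 8 in every library. The G9gl libraries held 298, 305 and 309.9 FPKM, against 310.2, 327 and 311 FPKM in the WT libraries. The ranges came within 1 FPKM of each other without crossing. With means of 304 ± 6.13 FPKM in G9gl and 316 ± 9.32 FPKM in WT (SD, n = 3 each), the log2(FPKM + 1) difference was -0.06, with a 95% interval of -0.16 to 0.05 and an adjusted p of 0.44 by limma with Benjamini-Hochberg adjustment. On this scale the interval leaves room for a fall of at most 0.16. After rescaling to TPM, Ccr7 was called lower, at -0.19 and an adjusted p of 0.019 by limma, and the median of all genes was then -0.13.

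Gpr183, also called EBI2, binds oxysterols and keeps B cells at the outer follicle, away from the follicle centre. Its G9gl libraries held 164, 139 and 139.8 FPKM, against 104, 104 and 103 FPKM in the WT libraries. The WT libraries were nearly alike, and G9gl replicate 1 was the highest of the 6. The means were 148 ± 14.5 FPKM in G9gl and 104 ± 0.750 FPKM in WT (SD, n = 3 each), a log2(FPKM + 1) difference of 0.50 ± 0.07 (SE) with an adjusted p of 0.0010 by limma with Benjamini-Hochberg adjustment. Gpr183 sits at chr14:121952551-121965195, inside the span of Ubac2 on the other strand and sharing no exon with it. Ubac2 lay the other way, with 57.0 to 60.1 FPKM in G9gl and 61.1 to 69.7 FPKM in WT. Gpr18, the neighbouring receptor gene at the same locus, was not called, with 334, 356 and 345 FPKM in G9gl and 312, 334 and 331 FPKM in WT (adjusted p = 0.28 by limma).

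Ccr6, the receptor for CCL20 carried by resting and memory B cells, was the second most abundant receptor in G9gl. Its levels were 195, 201 and 201 FPKM in the G9gl libraries and 141, 145 and 156 FPKM in the WT libraries. The groups were well apart and the spread within each was small, with means of 199 ± 3.47 FPKM in G9gl and 147 ± 7.78 FPKM in WT (SD, n = 3 each). The log2(FPKM + 1) difference was 0.44 ± 0.05 (SE), a 1.35-fold rise with an adjusted p of 0.00052 by limma with Benjamini-Hochberg adjustment.

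P2ry10, a receptor for lysophosphatidylserine and related lipids, rose by the narrowest margin. The G9gl libraries held 37.9, 30.7 and 33.6 FPKM, against 30.4, 25.1 and 22.1 FPKM in the WT libraries. The lowest G9gl library was only just above the highest WT library. The log2(FPKM + 1) difference was 0.39 ± 0.12 (SE), with an adjusted p of 0.040 by limma with Benjamini-Hochberg adjustment, and the call was lost under several other settings, among them TPM (0.27, adjusted p = 0.11) and the removal of G9gl replicate 1 or 3 or of WT replicate 2 or 3.

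The close paralog of P2ry10, P2ry10b (A630033H20Rik in the tables), ran the other way. It held 8.17, 8.71 and 9.02 FPKM in the G9gl libraries and 16.2, 11.5 and 12.1 FPKM in the WT libraries, and was called lower at -0.56 ± 0.12 (SE, log2(FPKM + 1)) with an adjusted p of 0.011 by limma with Benjamini-Hochberg adjustment. The longest open reading frames of the pair, 987 and 1059 bases, matched at 81.2% of aligned bases. Assignment of reads between the pair was not tested. Summed over the pair, the libraries overlapped, with 46.0, 39.4 and 42.6 FPKM in G9gl and 46.6, 36.6 and 34.2 FPKM in WT.

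Cxcr2, a receptor for neutrophil-attracting chemokines such as CXCL1, was barely detected. The G9gl libraries held 1.71, 1.66 and 1.67 FPKM, against 1.31, 1.51 and 1.30 FPKM in the WT libraries, or an estimated 48 to 56 fragments in G9gl and 38 to 45 in WT. The values did not overlap, but the log2(FPKM + 1) difference of 0.18 had a 95% interval of -0.11 to 0.47 and was not called (adjusted p = 0.35 by limma with Benjamini-Hochberg adjustment). Neutrophil markers summed to 15.9 to 36.3 FPKM in G9gl and 2.30 to 8.39 FPKM in WT over the 11 of 12 listed genes in the tables. One of the 2 tested, S100a8, was called higher, with 19.2, 10.3 and 10.4 FPKM in G9gl and 4.07, 1.88 and 1.36 FPKM in WT. The part of neutrophil RNA in the Cxcr2 values was not tested. Camp, Elane and Mpo, defining granule genes, were listed at 0 in all WT libraries, and each was above 0 in at least 1 G9gl library. Csf3r, the growth factor receptor that neutrophils carry, held 0.130 to 0.582 FPKM in G9gl and 0.110 to 0.427 FPKM in WT.

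**Figure D2:**
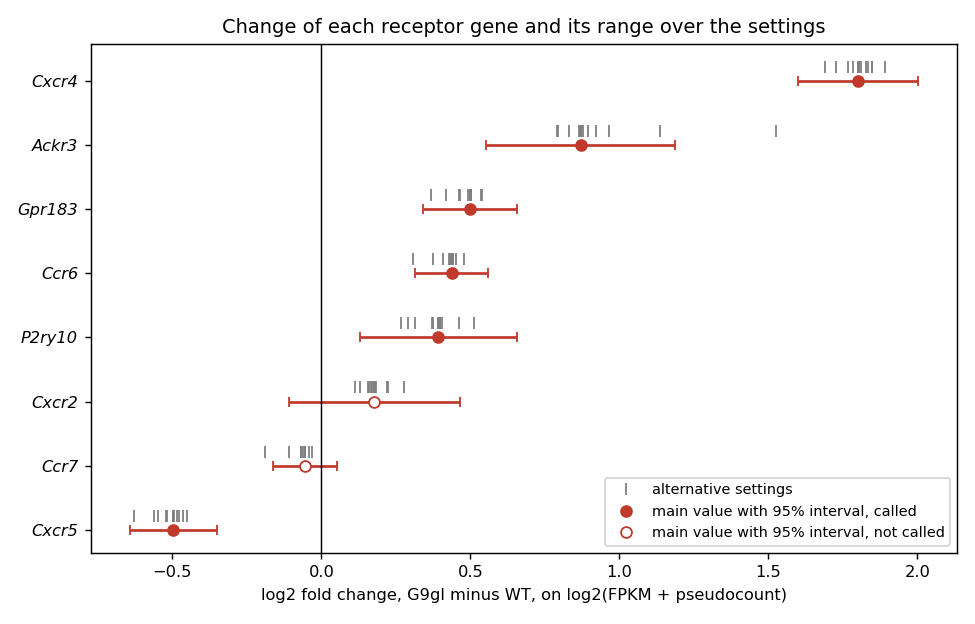
Difference G9gl minus WT on the log2(FPKM + 1) scale for each receptor, with 95% intervals. Filled points were called at an adjusted p under 0.05 by limma. Grey ticks are the values under the alternative settings, which included pseudocounts of 0.1 and 0.5 in place of 1. Cxcr4 stood apart at 1.80, Ccr6, Gpr183 and P2ry10 lay between 0.39 and 0.50, and Cxcr5 lay at -0.50.

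The order of the receptors, compared on the length-corrected FPKM scale, differed between genotypes. In G9gl it ran Ccr7, Ccr6, Gpr183, Cxcr5, Cxcr4, P2ry10, Ackr3 and Cxcr2, and Gpr183 and Cxcr5 overlapped, since that order of the pair held in 1 of 3 libraries. In WT it ran Ccr7, Cxcr5, Ccr6, Gpr183, P2ry10, Cxcr4, Cxcr2 and Ackr3, with no overlap between neighbours and the same order in 3 of 3 libraries. Cxcr5 thus ranked second in WT, ahead of Ccr6, while in every G9gl library Ccr6 was ahead of Cxcr5. Cxcr4 was ahead of P2ry10 in every G9gl library and behind it in every WT library.

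The summed level of the 8 receptors was 894.6 to 906.9 FPKM in G9gl and 797.4 to 832.0 FPKM in WT. Cxcr4 made up 6.75, 8.41 and 7.77% of that sum in the G9gl libraries, against 2.49, 2.30 and 2.18% in the WT libraries. Cxcr5 made up 15.1, 16.5 and 16.4% in G9gl, against 23.8, 25.2 and 25.8% in WT. The share of Ccr7 was lower as well, at 33.3 to 34.2% in G9gl and 37.7 to 39.3% in WT, although its level was not called changed. Ccr6 held 21.8 to 22.3% in G9gl and 17.4 to 18.9% in WT.

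A ratio of 2 receptors within a library does not depend on how libraries are scaled, so each receptor was set against Cxcr5. No test was attached to these ratios, since the same receptors had been tested one by one. Cxcr4 stood at 0.446, 0.509 and 0.474 of Cxcr5 in the G9gl libraries, against 0.105, 0.0910 and 0.0846 in the WT libraries. Ccr7 stood at 2.2, 2.04 and 2.09 times Cxcr5 in G9gl, against 1.63, 1.56 and 1.46 times in WT. For both, every G9gl library was above every WT library. Ccr6 exceeded Cxcr5 in every G9gl library, at 1.35 to 1.44, and was below it in every WT library, at 0.688 to 0.740. The ratio for Gpr183 was 0.926 to 1.22 in G9gl and 0.484 to 0.549 in WT, and for P2ry10 it was 0.205 to 0.280 in G9gl and 0.104 to 0.160 in WT. In mean log2 ratio the genotypes differed by 2.35 for Cxcr4, 1.0 for Gpr183, 0.94 for Ccr6, 0.91 for P2ry10 and 0.44 for Ccr7. All 5 ratios share Cxcr5, which was itself lower in G9gl, so the ratio of a receptor that did not change would also lie higher there, and Ccr7, with its 0.44, was not called changed in its own level.

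**Figure D3:**
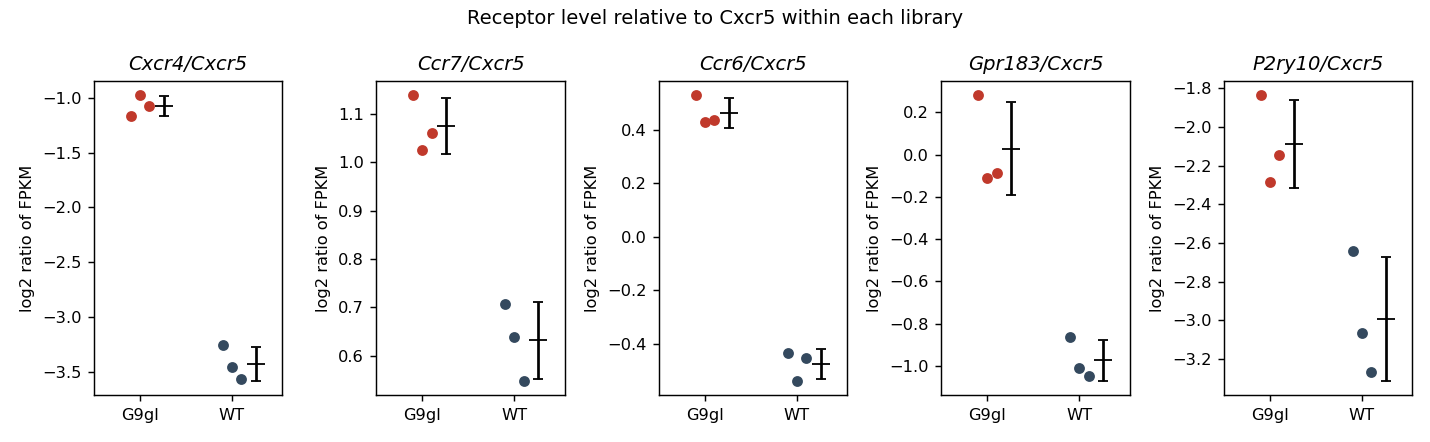
Log2 ratio of the FPKM of 5 receptors to that of Cxcr5 within each library, with G9gl left of WT; points are libraries, horizontal lines are means and error bars are SD (n = 3 libraries each), and each panel has its own axis. The 3 G9gl libraries lay above the 3 WT libraries for all 5 receptors, which share Cxcr5 as denominator, with mean log2 ratios for Cxcr4 of -1.07 in G9gl and -3.43 in WT.

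Genes that followed each called receptor most closely over the 6 libraries are given as a description, since the difference between genotypes enters r and 9488 genes were searched. For Cxcr4 the highest Pearson r on log2(FPKM + 1) was with Loxhd1 (0.9998), Pard3b (0.9987) and Rpl10a (0.9985). For Cxcr5 it was with Rgs14 (0.9992), an RGS protein that shortens G protein signals, then Stard5 (0.9961) and Rcsd1 (0.9941). Ccr6 ran closest to Zfp870 (0.9980), Atp5g2 (0.9974) and Chka (0.9972), and Gpr183 to Pced1a (0.9992), Ryr2 (0.9986) and Parm1 (0.9981). P2ry10 had lower maxima, with Zmat1 (0.9894), Tia1 (0.9784) and Sri (0.9779), and Ackr3 ran closest to Ffar2 (0.9992), Snhg18 (0.9977) and Thsd7a (0.9975).

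Of 18 other chemokine receptors, 5 passed the filter on low values. Among them, Cxcr3 passed only through G9gl and so had to differ. Of the other 4, Ccrl2 was called higher and 3 were not called. Over all tested genes, the shares were 11.8% called higher and 11.6% called lower. Cxcr3, the receptor for interferon-induced CXCL9 and CXCL10, held 3.37, 4.95 and 5.11 FPKM in the G9gl libraries and 0.721, 0.476 and 0.355 FPKM in the WT libraries. Ccrl2, an atypical receptor that binds chemerin, held 6.57, 6.82 and 6.20 FPKM in G9gl and 3.32, 3.11 and 2.27 FPKM in WT (1.94-fold, adjusted p = 0.00078 by limma). The groups did not overlap in Ccrl2. Ackr2 and Cxcr6 were not called (adjusted p = 0.30 and 0.63 by limma). NK cell markers, whose cells carry Cxcr3, summed to 8.06 to 12.3 FPKM in G9gl and 3.20 to 5.64 FPKM in WT over 8 genes, and T cell markers to 7.84 to 8.38 FPKM in G9gl and 4.60 to 7.45 FPKM in WT; their part in the Cxcr3 values was not tested.

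The ligands of these receptors are made mostly by stromal and myeloid cells, and only 1 of 16 listed ligands and ligand-making enzymes was tested. That gene was Mif, a cytokine that binds Cxcr4 and CD74, and it was called higher, with 507, 531 and 543 FPKM in G9gl and 405, 391 and 419 FPKM in WT (1.30-fold, adjusted p = 0.00073 by limma). Among the others, Ccl20, Ccl21a, Cxcl1 and Cxcl5 were listed at 0 in all 6 libraries. Among 10 endothelial and stromal markers, Pecam1, which held 72.7 to 82.9 FPKM in G9gl and 102 to 113 FPKM in WT, was the one gene to pass the filter, and each of the others was below 1 FPKM in every library.

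Of 16 other receptors and adhesion molecules that position B cells, all were tested, with 3 higher, 6 lower and 7 not called and a median log2(FPKM + 1) difference of -0.05. Over all tested genes, 11.8% were called higher and 11.6% lower, the background for this list and the 3 that follow, with a median of 0.00. S1pr3, a sphingosine 1-phosphate receptor, held 10.9, 8.33 and 6.83 FPKM in G9gl and 4.22, 4.501 and 4.70 FPKM in WT (adjusted p = 0.0041 by limma). S1pr2, which confines germinal centre B cells to the follicle centre, held 1.70, 2.98 and 3.16 FPKM in G9gl and 0.590, 1.003 and 1.12 FPKM in WT (adjusted p = 0.0098 by limma). In both of these genes, all G9gl libraries were above all WT libraries.

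Of 5 integrin genes in the list, Itga4, Itgal and Itgb7 fell, while Itgb1 and Itgb2 were not called (log2(FPKM + 1) differences of 0.16 and 0.05). Itga4, the alpha chain of VLA-4, which binds VCAM-1, held 8.19, 9.70 and 10.3 FPKM in G9gl and 21.7, 20.2 and 20.4 FPKM in WT, a 2.10-fold fall on the log2(FPKM + 1) scale (adjusted p = 7.3e-05 by limma). S1pr4, another sphingosine 1-phosphate receptor, held 69.3, 73.2 and 78.0 FPKM in G9gl and 89.9, 95.9 and 108 FPKM in WT (1.32-fold lower, adjusted p = 0.0049 by limma). S1pr1, the receptor for exit into blood, was not called (adjusted p = 0.061 by limma). Gpr132, a lipid and proton receptor, was the remaining gene called lower, beside P2ry10b, and lost that call without WT replicate 2.

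Among 27 genes for G protein subunits, RGS proteins, receptor kinases and arrestins, which relay or end receptor signals, 24 were tested, with 3 higher, 9 lower and 12 not called and a median of -0.15. Gna12, a G protein alpha subunit, held 4.84, 1.31 and 2.71 FPKM in G9gl and 19.6, 21.1 and 17.3 FPKM in WT, a 5.51-fold fall on the log2(FPKM + 1) scale (adjusted p = 0.00026 by limma). Adrbk1, which encodes the receptor kinase GRK2, held 84.3, 58.5 and 70.1 FPKM in G9gl and 157, 159.6 and 149 FPKM in WT (2.19-fold lower, adjusted p = 0.00013 by limma). Neither gene had overlapping groups. The count of lower genes in this list was 5 without WT replicate 2 and 14 after rescaling to TPM.

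The 3 that rose were all RGS genes, whose products speed up the shut-off of G proteins. Rgs13, best known from germinal centre B cells, held 6.37, 7.12 and 8.45 FPKM in G9gl and 2.64, 3.56 and 3.25 FPKM in WT (2.0-fold, adjusted p = 0.00072 by limma). Rgs3 held 6.81, 10.4 and 9.53 FPKM in G9gl and 3.98, 3.96 and 3.54 FPKM in WT (2.03-fold, adjusted p = 0.0010 by limma), and Rgs2 was the other, with a call that held in 14 of 17 alternatives. Rgs14, by contrast, fell, with 48.5, 53.6 and 52.9 FPKM in G9gl and 67.4, 76.0 and 75.7 FPKM in WT (1.40-fold lower, adjusted p = 0.0011 by limma). Germinal centre markers, a list that also holds Rgs13 and S1pr2, summed to 82.6 to 85.1 FPKM in G9gl and 78.7 to 81.9 FPKM in WT, with 3 of 5 tested members higher and 1, Bcl6, lower.

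All 28 genes for migration effectors, which link receptors to the cytoskeleton and to integrins, were tested, and none was higher, 9 were lower and 19 were not called (median -0.12). Fgd2, an exchange factor for Cdc42, held 37.8, 36.3 and 31.4 FPKM in G9gl and 115, 125 and 129.5 FPKM in WT, a 3.44-fold fall (adjusted p = 1.7e-06 by limma). Rasgrp2, which activates Rap1 ahead of integrin adhesion, held 59.6, 44.8 and 43.1 FPKM in G9gl and 99.6, 97.8 and 99.9 FPKM in WT, a 2.02-fold fall (adjusted p = 0.00020 by limma). In these 2 genes each G9gl library was well below each WT library. The count of lower genes was 5 without G9gl replicate 2, 4 without WT replicate 2, 15 after quantile normalization and 19 after rescaling to TPM, where 2493 of all 10122 tested genes were lower. Myh9, the heavy chain of a non-muscle myosin, and Was, the Wiskott-Aldrich protein, fell less, by 1.30-fold and 1.29-fold (adjusted p = 0.0023 and 0.0059 by limma).

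Of 19 transcription factors known to act on these receptor genes or on B cell positioning, 18 were tested, with 2 higher, 8 lower and 8 not called (median -0.17). Id3, an inhibitor of E proteins, held 204, 239 and 243 FPKM in G9gl and 425, 410.1 and 474 FPKM in WT (1.91-fold lower, adjusted p = 6.0e-05 by limma). Klf3 held 65.0, 67.1 and 72.9 FPKM in G9gl and 107, 106 and 116 FPKM in WT (1.60-fold lower, adjusted p = 0.00012 by limma). Pou2af1, the B cell co-activator of octamer-binding factors, rose, with 210.5, 205 and 215 FPKM in G9gl and 149, 154 and 151 FPKM in WT (1.39-fold, adjusted p = 0.00016 by limma), and Nfkb2 was the other that rose, by 1.16-fold (adjusted p = 0.025 by limma), a call that was lost in 6 of 17 alternatives, among them quantile normalization and TPM. Irf4, which directs plasma cell fate, was 1.44-fold lower (adjusted p = 0.00052 by limma). Foxo1, needed for Ccr7 expression and the dark zone programme in mouse B cells, was 1.35-fold lower (adjusted p = 0.0085 by limma).

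**Figure D4:**
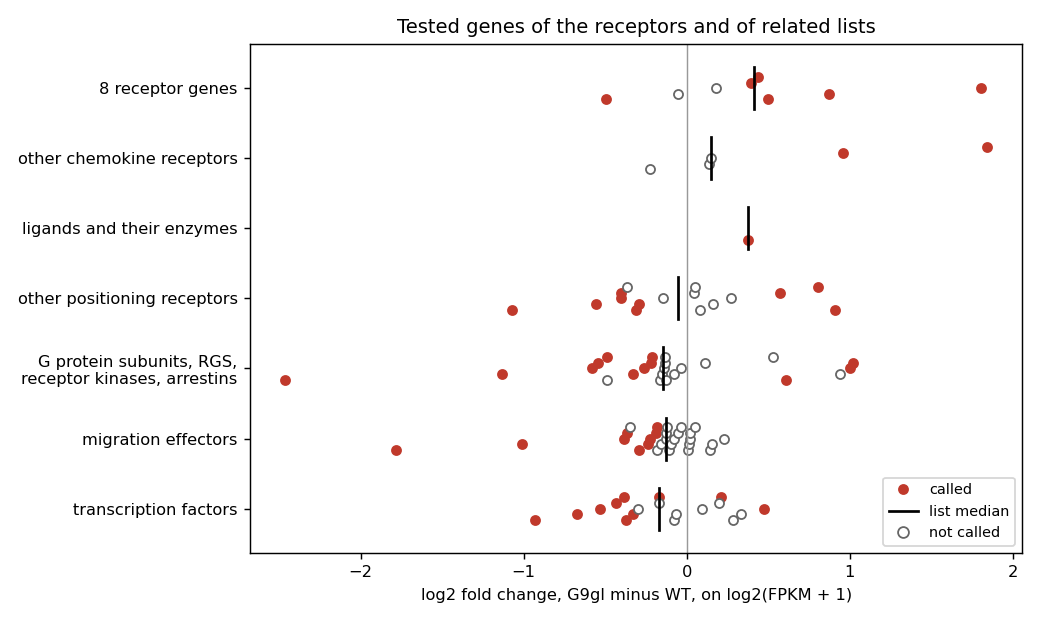
Difference G9gl minus WT on the log2(FPKM + 1) scale for every tested gene of the 8 receptors and the 6 lists, 1 dot a gene; red dots were called at an adjusted p under 0.05 by limma, open dots were not, height within a row only separates dots, and the black line is the list's median. Medians of the lists ran between -0.17 for transcription factors and 0.38 for the single tested ligand gene, against 0.00 over all tested genes.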

How the data were processed

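RNA was measured in 6 libraries, 3 from G9gl homozygous and 3 from WT mice, grouped by the genotype in the labels. Per the labels' protocols, Trizol was used for RNA, a SMART-Seq HT kit for full-length cDNA and a Nextera kit for libraries, which keep no strand. Per the submitters' processing notes, the tools were Cufflinks 2.2.1, TopHat2 2.0.13, SAMtools 0.1.19 and Bowtie2 2.2.3, on build mm10. The authors deposited FPKM per gene symbol; the unit was read from the tools and the values, and their annotation is not given in the sources used here. Since FPKM is relative to all mapped fragments, abundant transcripts that change shift the values of the rest. Immunoglobulin genes were not analysed here.

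From these values, limma 3.58.1 in R 4.3.3 (lmFit, eBayes with trend) was run on log2(FPKM + 1) in the 10122 genes that reached 1 FPKM in 3 or more of 6 libraries. Genotype was the sole term, p-values were adjusted over the whole table by Benjamini-Hochberg, and a gene was called at an adjusted p under 0.05. The procedure was also run on simulated data with independent noise and with shifts placed only in genes well above the filter. That run does not show how changes in low genes, such as Ackr3 and Cxcr2, are called. All 8 receptors passed the filter, so the exact permutation test planned for those below it was not needed; with 3 against 3 libraries it could not go below 0.1. Depth was estimated from the steps between low FPKM values in genes with 1 transcript of at least 1500 bases, with 200 bases subtracted. The search ran between 5000000 and 15000000 fragments and took the depth at which these values best matched whole fragments. At that depth 81.0 to 86.7% of low values fell within 0.15 of a whole fragment, which is therefore no separate check. Fragment numbers rest on that estimate and cover counting only. No pair of libraries shared more than 2 identical values above 0.

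The receptors, the pathway lists and the marker lists were chosen with earlier results of these data known. Named genes were the 8 receptors and the 4 tested genes of each list with the smallest limma p. Genes needed to complete a count of 5 or fewer, the 3 searched genes most correlated with each called receptor, and defining markers were also named. Other genes (Rgs14 in its list, Foxo1, S1pr1, P2ry10b, Gpr18, the remaining positioning genes that fell, ligands listed at 0 and the neighbours of the receptor loci) were added for their known role or place, after their values were seen. A gene that the rule names among the positioning genes that rose is not reported here. Positions are from GENCODE vM21 and sequences from RefSeq GRCm38.p6. Alternatives were other pseudocounts (0.1 and 0.5), filters, scalings, library weights, robust eBayes, a replicate block, and fits without 1 library.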

Additional observations from a re-analysis of the deposited data

How the results depend on the processing

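Cxcr4, Cxcr5, Ccr6 and Gpr183 kept their direction and call in 17 of 17 alternatives. Their log2 differences were 1.69 to 1.89, -0.63 to -0.45, 0.31 to 0.48 and 0.37 to 0.54, in that order. Ackr3, whose groups the main filter set apart, was called higher in the 15 that tested it. Its log2 differences were 0.79 to 0.97 with a pseudocount of 1, and 1.14 and 1.53 with pseudocounts of 0.5 and 0.1. No result listed here reversed. P2ry10 was not called without a filter on low values (0.39, adjusted p = 0.12 by limma) or under TPM (0.27), and ranged over 0.29 to 0.51 with each library left out, losing its call without G9gl replicate 1 or 3 or WT replicate 2 or 3. Ccr7 was called lower under TPM (-0.19), which made 2 receptors lower, with 730 genes higher and 2493 lower in all; G protein regulators then had 14 lower, migration effectors 19 lower and transcription factors 1 higher. Quantile normalization gave 15 migration effectors lower. With at least 1 FPKM in all 6 libraries, or at least 5 FPKM in 3, where fewer genes were tested, 1 other chemokine receptor was higher. With each library left out, 718 to 1172 genes were lower (718 without WT replicate 2), G protein regulators had 5 to 10 lower (5 without WT replicate 2), migration effectors 4 to 10 lower (4 without WT replicate 2, 5 without G9gl replicate 2) and 0 to 1 higher (1 without G9gl replicate 1), and transcription factors 1 to 2 higher (1 without G9gl replicate 3, WT replicate 1 or WT replicate 3). Deviations of same-numbered libraries correlated at 0.0990, -0.0694 and 0.0206, and those of other pairs ranged from -0.153 to 0.157. With 3 libraries a group, these values cannot decide whether replicate numbers pair the libraries. A replicate block gave 5 G protein regulators higher in place of 3. It left the calls of the 8 receptors as they were and gave 1044 genes higher and 988 lower. The cause of these differences was not tested. At the estimated depth, Ackr3 rests on 53 to 72 fragments a library in G9gl and 17 to 19 in WT, and Cxcr2 on 48 to 56 in G9gl and 38 to 45 in WT, which limits the precision of both.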

Other observations

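Haemoglobin RNA differed among the G9gl libraries: Hba-a1 held 205, 67.5 and 29.7 FPKM in the G9gl libraries and 40.7, 25.8 and 42.7 FPKM in the WT libraries, and was not called (adjusted p = 0.20 by limma). Without G9gl replicate 1, which held the most, the log2(FPKM + 1) differences of Cxcr4, Cxcr5, Ccr6 and Gpr183 kept their call. That of P2ry10 (0.32, adjusted p = 0.095 by limma) did not. P2ry10 also lost its call without G9gl replicate 3, WT replicate 2 or WT replicate 3.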
